A study of Mus musculus with 2 samples.

Results

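The miR-17-92 cluster of mouse chromosome 14 was examined in small RNA libraries of the established mouse embryonic stem cell line J1 (strain 129S4/SvJae). Its members were chosen by name as the hairpin genes Mir17, Mir18, Mir19a, Mir20a, Mir19b-1 and Mir92-1, 6 of 1174 miRNA hairpin genes with a Mir symbol in GENCODE M21. The cells were exposed for 6 h to 1 µM SC1 (also called pluripotin, a compound that blocks ERK1 and RasGAP), or for 6 h to the same volume of its solvent DMSO. Both groups grew on gelatin, with serum replacement and 1000 U/mL LIF. With 1 library per condition there was no replicate error, and no difference was tested.

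The series asked which miRNAs respond to SC1, but the lists deposited for the conditions hold different tag lengths and cannot be set against each other. The SC1 list held 1275599 reads of 3 to 17 nt, and the DMSO list 18870345 reads of 18 to 44 nt. A tag is a distinct read sequence, and it was counted for a hairpin when it matched it exactly. SC1 tags of 15 to 17 nt and DMSO tags of 18 to 26 nt were used. Of these, 53343 SC1 reads and 2177993 DMSO reads matched any miRNA hairpin. The 7 hairpins of the miR-290-295 cluster, the leading miRNA locus in this cell type, took 28.9% of the DMSO hairpin reads. A list of 9 hairpins typical of muscle, liver, blood and fibroblasts took 0.254% with 8 of them detected. The highest counts among them were 2966 reads that fit both Mir1a-1 and Mir1a-2 (muscle) and 2061 for Mir143 (fibroblast). Mir133a-1 and Mir133a-2, also of muscle, had the same 6 reads. Mir145a (fibroblast) had 136 and Mir122 (liver) 55. Of the hairpins known from blood, Mir142 had 304 reads and Mir223 had 0.

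The 6 hairpins are known to be cut from a single primary transcript, Mir17hg, by Drosha and then processed by Dicer into a 5p and a 3p strand. Bases 2 to 8 of the mature strand, the seed, are known to choose the mRNA targets. The cluster is known to be driven by Myc, to promote proliferation and to restrain pro-apoptotic genes such as Bcl2l11. It has paralogs on chromosome X (with Mir106a, Mir18b, Mir20b, Mir19b-2, Mir92-2 and Mir363) and in Mcm7 on chromosome 5 (with Mir106b, Mir93 and Mir25).

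The RefSeq mature sequences of the strands that led each member, and of the other strands with over 1000 DMSO reads, are given 5′ to 3′ with the seed in capitals, because the seed groups and the tags shared with paralogs follow from them.
miR-17-5p: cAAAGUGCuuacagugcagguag
miR-20a-5p: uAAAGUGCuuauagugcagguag
miR-18a-5p: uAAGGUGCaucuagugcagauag
miR-19a-3p: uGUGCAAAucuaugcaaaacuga
miR-19b-3p: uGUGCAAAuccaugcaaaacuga
miR-92a-3p: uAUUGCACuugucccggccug
miR-17-3p: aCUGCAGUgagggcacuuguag
miR-92a-1-5p: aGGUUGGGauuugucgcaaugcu

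All 6 genes lie on the forward strand of chromosome 14 (GRCm38) in exon 2 of the 2 exons of Mir17hg, a lincRNA at chr14:115042879-115046727. Mir17 lies at chr14:115043671-115043754, Mir18 at chr14:115043851-115043946 and Mir19a at chr14:115044000-115044081. Mir20a follows at chr14:115044157-115044263, Mir19b-1 at chr14:115044305-115044391 and Mir92-1 at chr14:115044427-115044506. From the first base of Mir17 to the last of Mir92-1 they span 836 nt. The hairpins at either end are shown with the mature strands in capitals, since they carried most of the reads.
Mir17: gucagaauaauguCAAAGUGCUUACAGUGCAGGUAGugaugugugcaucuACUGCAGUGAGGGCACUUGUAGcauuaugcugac
Mir92-1: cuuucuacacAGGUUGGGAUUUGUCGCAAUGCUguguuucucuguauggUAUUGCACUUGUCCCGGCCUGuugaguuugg

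In the SC1 list the cluster held 183 short reads in 18 tags, 0.343% of the hairpin reads of that list (exact binomial 95% interval 0.295 to 0.396). Mir92-1 had 98 of these reads and Mir18 had 75, while Mir20a had 6 and Mir17 had 4. Mir19a and Mir19b-1 had 0 reads, which allows each a share of up to 0.00562% of the hairpin reads. The SC1 fragments of Mir18 all began at the annotated start of miR-18a-5p, with 41 reads of 16 nt, 32 of 17 nt and 2 of 15 nt. They fit Mir18b of chromosome X equally, because miR-18a-5p and miR-18b-5p part at A18U and A20U, counted from 1 at the 5′ end. Of the Mir92-1 fragments 83 began at or near the start of the 3p strand and 12 at or near that of the 5p strand, and 84 of the 98 fit Mir92-2 as well. The fragment of 15 nt at the start of miR-92a-3p, with 22 reads, also occurs in a transcript of Hnrnpul2. Without tags that fit other hairpins the SC1 list kept 24 cluster reads, 14 of Mir92-1, 6 of Mir20a and 4 of Mir17.

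**Figure D1:**
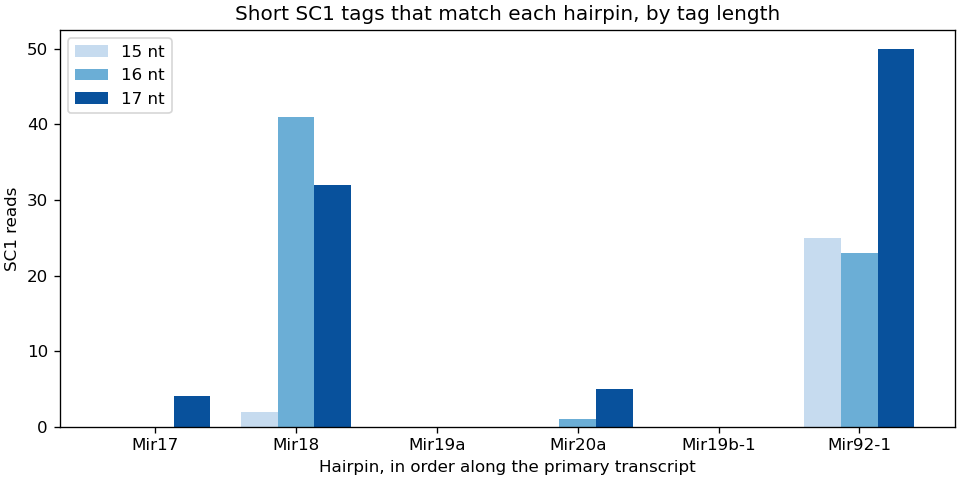
Bars give the number of SC1 reads of 15, 16 and 17 nt that match each hairpin exactly, with hairpins in their order along the transcript. Mir92-1 (98 reads) and Mir18 (75 reads) hold nearly all of them, Mir17 has 4 and Mir20a 6, and Mir19a and Mir19b-1 have 0.

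In the DMSO list the cluster held 37476 reads in 130 tags, 1.72% of the hairpin reads (interval 1.70 to 1.74), and its members were far from equal. Mir92-1, whose 3p strand is known to target integrin alpha 5 and Bcl2l11, had 31236 reads, 83.3% of the cluster (interval 83.0 to 83.7). Mir17 had 3887 reads (10.4%) and Mir20a 1066 (2.84%); their 5p strands share a seed that is known to act on E2f1 and Cdkn1a. Mir19b-1 followed with 930 reads (2.48%) and Mir18 with 320 (0.854%). Mir19a, whose 3p strand shares its seed with miR-19b-3p, had 37 reads (0.0987%). Output did not follow the order of the hairpins on the transcript, since the highest value was at the last hairpin and the lowest at the third, with tags that also fit paralogs counted whole. Without those tags, Mir19b-1 was lowest with 5 reads, and by distinct tags it was lowest as well. Without Mir92-1 the cluster's 5p strands made up 56.6% of the reads of both arms, against 13.3% with it.

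Per 1000000 DMSO hairpin reads, Mir92-1 stood at 14342, Mir17 at 1785, Mir20a at 489, Mir19b-1 at 427, Mir18 at 147 and Mir19a at 16.99. Of 741 hairpins with reads, Mir92-1 ranked 24, Mir17 ranked 80, Mir20a 155, Mir19b-1 165, Mir18 241 and Mir19a 374, and the median hairpin with reads had 41.0. With tags that also fit paralogs counted whole, as in these rates and ranks, all members but Mir19a lay above this median. The 37 reads of Mir19a lay just under it. Without shared tags Mir19b-1 kept 5 reads, fewer than Mir19a. Mir92-1 had 844 times the reads of Mir19a (counting interval 612 to 1199), or 281 times (204 to 399) with unshared tags alone. Mir17 had 3.65 times the reads of Mir20a (3.41 to 3.91) and 12.1 times those of Mir18 (10.8 to 13.7). Neighbours in this order were closest at Mir20a and Mir19b-1, at 1.15 times (1.05 to 1.25), with the shared tags of Mir19b-1 counted whole. As these are read counts, a different yield of each sequence in library making and a different level in the cells cannot be told apart. The leading strands of the extremes differed in base composition, with a GC content of 57.1% in miR-92a-3p and 34.8% in miR-19a-3p, whose part in the order was not tested.

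**Figure D2:**
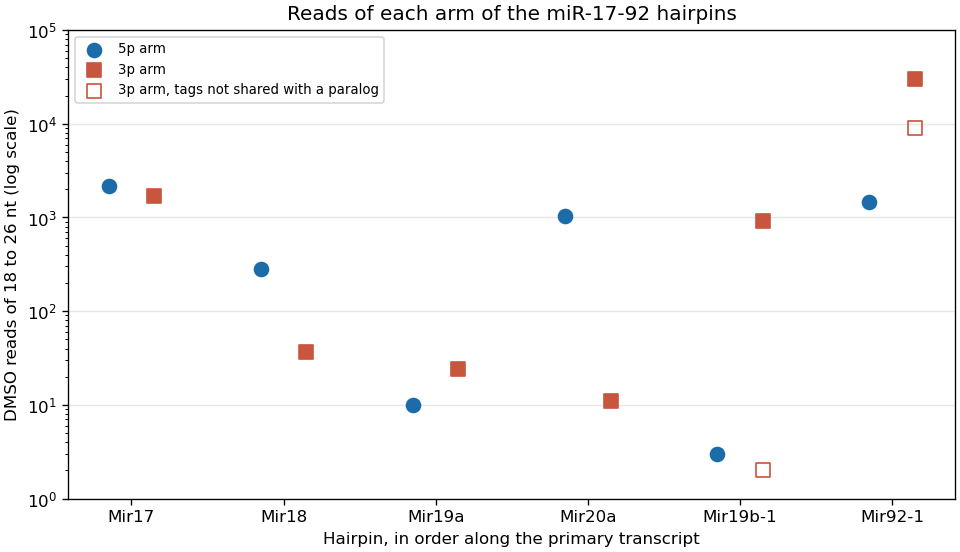
Points give the DMSO reads of 18 to 26 nt of the 5p and 3p arm of each hairpin on a log scale, and open squares the 3p reads of Mir19b-1 and Mir92-1 that fit no paralog. The 3p arm of Mir92-1 (29770 reads) stands highest, or 8930 reads without shared tags, while Mir19b-1 falls to 2 such 3p reads.

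How much of the leading product came from chromosome 14 is set by tags that also fit paralogs. Mir17, Mir18, Mir19a and Mir20a shared 0 reads of 18 nt or more with another hairpin, although miR-17-5p differs from miR-106a-5p by U10A alone. Mir19b-1 shared 925 of its 930 reads with Mir19b-2, since their 3p strands have the same sequence over 23 nt. For miR-19b-3p the source gene could therefore not be read, with 2 reads that fit Mir19b-1 and 3 that fit Mir19b-2. Mir92-1 shared 20840 of its 31236 reads (66.7%) with Mir92-2. Its 3p tags part from those of Mir92-2 at base 22, shown in capitals.
fits both: tattgcacttgtcccggcct
fits Mir92-1: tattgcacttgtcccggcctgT
fits Mir92-2: tattgcacttgtcccggcctgA

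The shared form of 20 nt had 15730 DMSO reads, the form ending in T 8675 and the form ending in A 2176. Over all unshared 3p tags, Mir92-1 had 8930 reads and Mir92-2 had 2229, so that 80.0% fitted chromosome 14 (interval 79.3 to 80.8). The 5p arms, which share no tag, stood in the other order, with 1466 reads of Mir92-1 and 5298 of Mir92-2, or 21.7% from chromosome 14 (20.7 to 22.7). An untemplated T or A on the shared form of 21 nt (4182 reads) gives the same letters as these diagnostic tags and cannot be told apart from them.

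Arm use differed between hairpins of the same transcript. Mir20a was nearly all 5p, with 1049 reads on that arm and 11 on the other (99.0%, interval 98.2 to 99.5). Mir18 also led with 5p, at 280 against 37 reads (88.3%, 84.3 to 91.6). Mir19b-1 had 927 reads on 3p and 3 on 5p (99.7%), with tags that also fit Mir19b-2 counted whole. Without the 925 shared reads it kept 2 on 3p, so its own arm use could not be read. Mir92-1 had 29770 on 3p and 1466 on 5p (95.3% 3p). The 5p share of Mir92-1 was 4.69%, or 14.1% when shared tags were left out. Mir19a had 24 reads on 3p and 10 on 5p, where the 5p reads come from a strand with no mature form in the RefSeq table. Of the 5 members with at least 300 reads, Mir17 had the lowest share on its leading arm, with 2184 reads of 5p and 1703 of 3p (56.2%, interval 54.6 to 57.8). Its seed partner Mir20a stood at 95.4 to 1 in favour of 5p, and Mir17 at 1.28 to 1. With the most abundant tag of each arm alone, 5p made up 76.5% of Mir17 (1542 of 2016 reads) and 98.4% of Mir20a, and by distinct tags 5p made up 45.9% of Mir17.

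Among 152 other hairpins with 2 RefSeq mature strands and at least 300 reads, the leading arm took a median of 98.3% (quartiles 87.7 and 99.9). In 5 of these 152 (3.29%) it took under 60%, a limit chosen after the value of Mir17 was seen. Among these 5 was Mir106b of the paralog cluster in Mcm7, with 2404 reads on 5p and 2423 on 3p. Another was Mir30c-2, with 586 reads on 5p and 562 on 3p, where Mir30c-1 had the same 5p count. Tags that fit several hairpins were counted whole in this set as well. The other paralogs of the miR-17 seed were not balanced, with 5p at 94.98% for Mir106a, 96.1% for Mir20b and 99.9% for Mir93.

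**Figure D3:**
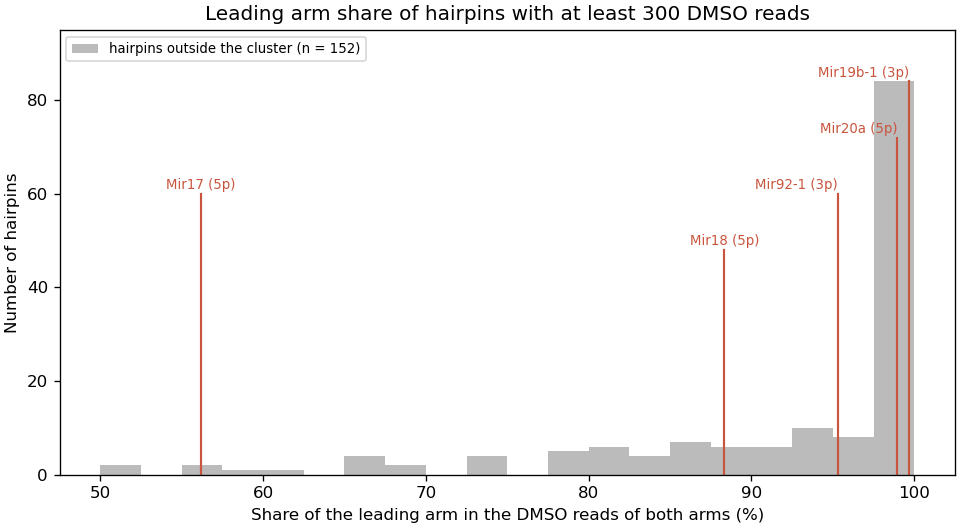
The histogram shows the leading arm's share of the DMSO reads of both arms for 152 hairpins outside the cluster, and red lines mark the 5 members with at least 300 reads. Mir17 (56.2%) lies at the low end, Mir18 at 88.3%, and Mir92-1, Mir20a and Mir19b-1 at 95.3% or more. Tags that also fit paralogs are counted whole, which holds for 925 of the 930 reads of Mir19b-1.

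By seed, the DMSO reads that fit the cluster were mostly AUUGCAC of miR-92a-3p. It had 29410 reads at the annotated start (78.5% of the cluster, interval 78.1 to 78.9). Tags that also fit paralogs were counted whole here. These include the leading tags of miR-92a-3p (15730 reads, also Mir92-2) and miR-19b-3p (353 reads, also Mir19b-2). Seed shares from chromosome 14 alone were not counted. AAAGUGC, shared by miR-17-5p and miR-20a-5p, had 3181 reads (8.49%). The 3p strand of Mir17 came next with 1537 reads of CUGCAGU (4.10%), and miR-92a-1-5p with 1458 of GGUUGGG (3.89%). GUGCAAA of the miR-19 strands had 938 reads (2.503%) and AAGGUGC of miR-18a-5p 279 (0.744%). The strand usually regarded as the passenger of Mir17 thus had more reads than the miR-19 and miR-18 seed groups.

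Start positions were uniform for most strands, which keeps the seed constant. The annotated start held 99.5% of reads in miR-20a-5p, 99.6% in miR-18a-5p, 99.1% in miR-19b-3p, 98.8% in miR-92a-3p and 97.8% in miR-17-5p. The median over 103 other mature miRNAs with at least 1000 reads was 98.7% (quartiles 94.3 and 99.6). miR-17-3p was the least uniform of the cluster's strands with over 1000 reads, at 90.3% (interval 88.7 to 91.6), with 146 reads starting 1 nt and 19 reads 2 nt downstream. Of the few reads of miR-19a-3p, 19 of 24 began at the annotated start.

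Tag lengths separated the strands further. miR-17-5p, miR-20a-5p and miR-92a-1-5p were mostly 23 nt (71.4%, 53.9% and 55.4% of their reads), and in each the most abundant tag was the RefSeq form. miR-18a-5p was mostly 21 nt (52.1%, interval 46.1 to 58.1), 2 bases shorter than its RefSeq form of 23 nt, which had 57 of 280 reads. miR-19b-3p spread over 21, 22 and 23 nt, at 27.4%, 33.0% and 38.5%. miR-17-3p was the most heterogeneous, since its leading tag took 27.8% of the reads and lengths of 20 to 24 nt each held 9.34% or more.

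miR-92a-3p had maxima at 20 and 22 nt on either side of a minimum at the RefSeq length. It had 53.0% of its reads at 20 nt, 14.4% at 21 nt and 29.2% at 22 nt, and the RefSeq form itself held 4182 of 29770 reads (14.05%). In 10 of 103 other mature miRNAs (9.71%) both 20 and 22 nt also exceeded 21 nt, and in 12 (11.7%) the most abundant tag had 20 nt or less. miR-25-3p, which has the same seed, had its maximum at 22 nt with 63.8% of 98738 reads, and 12.6% at 20 nt. Counted in the same way on Mir92-2, miR-92a-3p had 68.4% at 20 nt, 18.3% at 21 nt and 9.45% at 22 nt, with no minimum at 21 nt. Since the 22 nt tags of miR-92a-3p ending in T fit Mir92-1 and the 20 nt tag fits both genes, the lengths of the strand from chromosome 14 alone could not be separated.

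**Figure D4:**
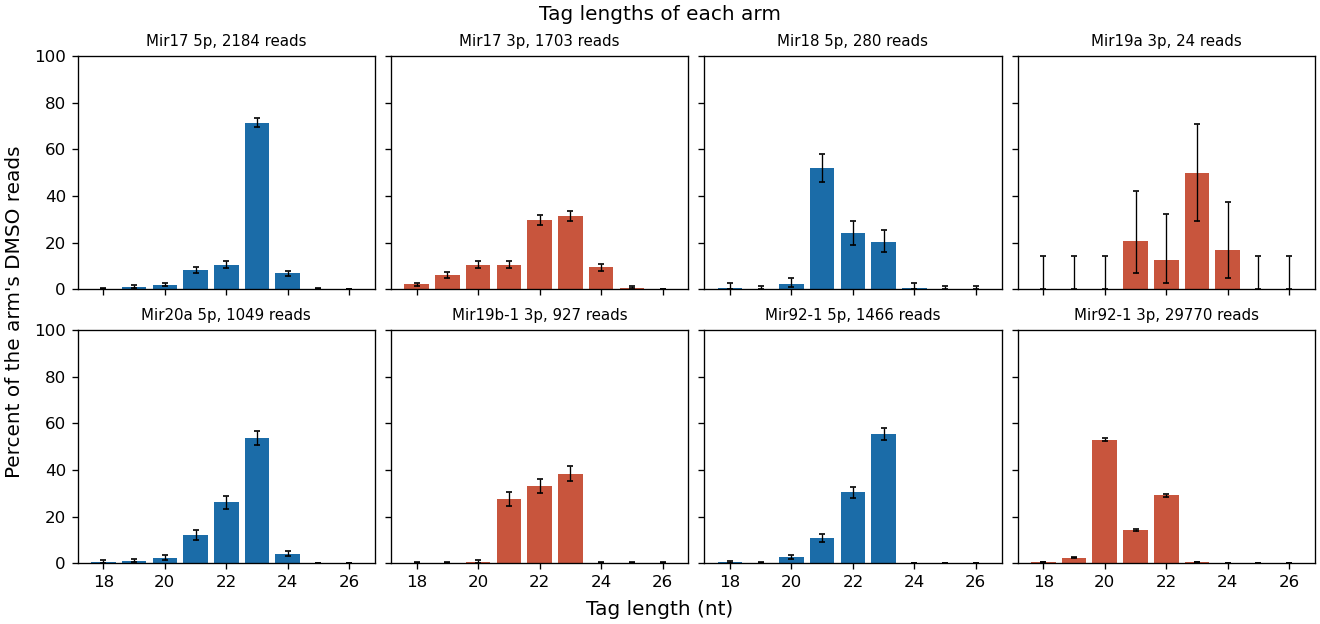
Bars give the percent of an arm's DMSO reads at each tag length from 18 to 26 nt (5p blue, 3p red), with exact binomial 95% intervals that cover counting error. The 5p arms of Mir17, Mir20a and Mir92-1 peak at 23 nt, Mir18 5p peaks at 21 nt, and Mir92-1 3p peaks at 20 nt (53.0%) and again at 22 nt (29.2%).

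The summed length profile of the members' leading arms was compared with 112 hairpin arms of at least 1000 reads that share no tag with the cluster. The distance used was the total variation distance over 9 lengths, where 0 means identical profiles. The nearest were miR-1193-5p (0.131), miR-382-3p (0.138) and miR-690 (0.262), against a median of 0.584. The cluster profile is dominated by miR-92a-3p, with 46.3% at 20 nt, and miR-382-3p likewise had 56.1% at 20 nt, 15.0% at 21 nt and 21.8% at 22 nt.

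Reads of the primary transcript outside the mature strands were rare, and most lay next to them. Tags of 18 to 31 nt were matched to the Mir17hg transcript for this. Of the reads not wholly inside a hairpin, 101 in 25 tags reached into one, and 4 in 4 tags touched none. Inside the hairpins, 3 reads of Mir18, 3 of Mir19a and 1 of Mir20a lay toward the loop and belonged to neither arm. In front of miR-17-5p 57 reads ended within 2 nt of its start, 47 of them on the adjoining base. The commonest, with 35 reads, was tgaccagtcagaataatgt. In front of the 5p strand of Mir19b-1 28 reads ended on the adjoining base, more than the 3 reads of that strand. The leading tag there was cctgttattgagcactggtctatggtt with 10 reads. Mir20a had 5 such reads, Mir92-1 had 2 and Mir18 had 1. Behind miR-92a-3p 7 reads began on the base after the 22 nt form, and behind miR-19b-3p 4 reads began on the base after a mature end. No tag of 27 to 44 nt lay inside a member's hairpin, and 0 DMSO reads matched the opposite strand of a member.

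**Figure D5:**
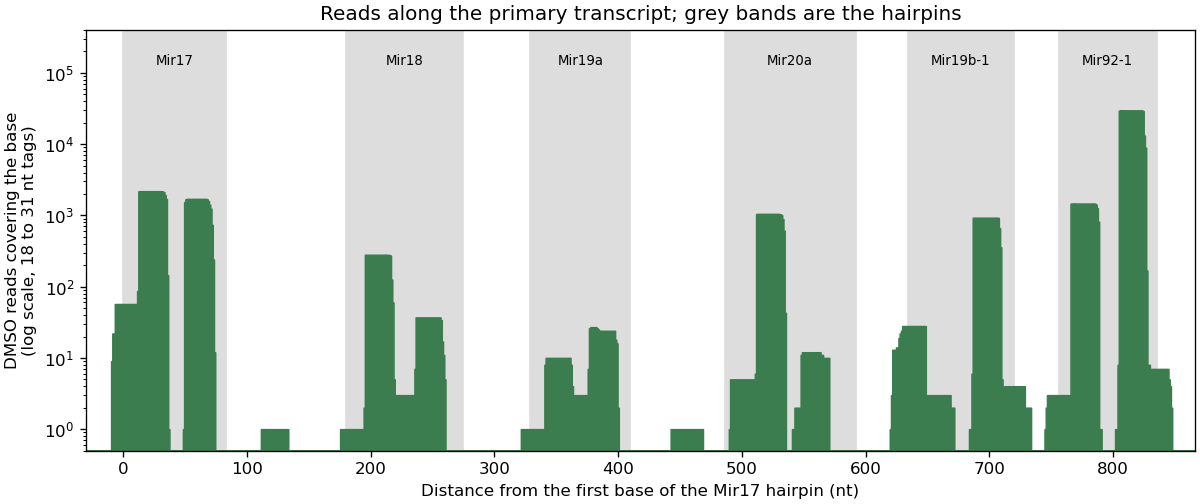
The green profile gives the DMSO reads of 18 to 31 nt covering each base of the transcript on a log scale, against the distance from the first base of Mir17, with the hairpins as grey bands. Paired peaks mark the 5p and 3p strands, the last of them, miR-92a-3p, being the highest, and low shoulders stand in front of Mir17 (57 reads) and Mir19b-1 (28 reads).

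The members of the paralog clusters were also far from equal in DMSO. On chromosome 5, Mir25 had 115347 reads, more than the whole miR-17-92 cluster, whereas its neighbours Mir93 and Mir106b had 7140 and 4830. On chromosome X, with shared tags counted whole, Mir92-2 led with 28367 reads, as Mir92-1 did on chromosome 14, and Mir363 followed with 21181. Mir19b-2 had 934 reads there, Mir20b 920, Mir106a 617 and Mir18b 327. Without shared tags Mir92-2 kept 7527 reads and Mir19b-2 kept 9, so that Mir363, which shares none, led. Mir17 (3887 reads) thus exceeded Mir106a, from which it differs by 1 base in the 5p strand, while Mir18 (320) and Mir18b (327) were nearly equal in total. At 18, 19 and 20 nt, Mir18 5p had 2, 0 and 6 reads and Mir18b 5p 136, 48 and 52. At 21, 22 and 23 nt, Mir18 5p had 146, 67 and 57 and Mir18b 5p 15, 12 and 23. The 18 nt tag of Mir18b parts from miR-18a-5p only at its last base, a T. An untemplated T on the shared 17 nt gives the same tag and cannot be told apart from it. Mir363, whose 3p strand has the seed of miR-92a-3p, had most of its reads on 5p, with 18386 on that arm and 2779 on 3p.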

How the data were processed

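Small RNA was sequenced from total RNA with a standard Illumina library protocol, per the labels' protocols. For each sample the authors deposited a list of distinct tags with raw read counts, 1 library per condition. The submitters' processing notes list the build mm9. How adapters were removed, tags filtered by length and reads aligned is not given in the sources used here. Beside each deposited count stands a tag length, which equalled the length of the sequence. A closing line of the DMSO list with its total was left out.

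Exact sense matches to GENCODE M21 hairpins were counted, with coordinates of GRCm38 and mature strands and sequences from RefSeq (GRCm38.p6). All 6 members matched RefSeq by symbol. A tag belonged to an arm if it started within 5 nt of the RefSeq mature start. Where the table gives no mature strand, a tag lying wholly on that side of the hairpin midpoint was used. A tag that fitted several hairpins was counted whole in each and once in sums. Mir17hg was searched with tags of 18 to 31 nt. Intervals are exact (Clopper-Pearson) at 95%, and 3 counts served as the upper limit of a count of 0. Without molecular identifiers both cover counting error only. A list total is that of a length class and not the depth of the library. The planned design had no test. The assignment was tested on simulated reads cut from the same hairpins without errors or added bases, which cannot show false matches. Named items were all members with both arms, the paralogs by reads, and the 3 most similar length profiles. Alternatives concerned shared tags, minimum reads, tag lengths, untemplated ends and distinct tags. The members and lists were chosen with earlier results of these data known. Python 3.11.15, numpy 2.4.6, pandas 2.3.3, scipy 1.17.1 and matplotlib 3.10.9 were used.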

Additional observations from a re-analysis of the deposited data

Results flagged for a closer look

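Tags outside the exact matches carried untemplated 3′ bases, a signal outside the planned count. An addition here is 1 to 3 nt after at least 18 templated nt, on a tag that fits no hairpin. miR-17-3p had 437 such DMSO reads beside 1703 exact ones (20.4%, interval 18.7 to 22.2), and miR-17-5p had 302 beside 2184 (12.1%, 10.9 to 13.5). miR-20a-5p had 194 (15.6%), miR-92a-3p 1646 (5.24%), miR-19b-3p 45 (4.63%) and miR-92a-1-5p 20 (1.35%). With bases templated by any other hairpin counted as templated, miR-92a-3p had 1344 (4.32%) and miR-19b-3p 44 (4.53%), and the other 4 strands kept their values. By that count, the median over 103 other mature miRNAs with at least 1000 reads was 6.59% (quartiles 3.52 and 13.4).

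Which base was added differed between strands, shown here with the added base in capitals. miR-17-3p led with T (8.83% T and 4.07% A), and its commonest such tag had 144 reads.
miR-17-3p with T: actgcagtgagggcacttgtagcT
miR-92a-3p with A: tattgcacttgtcccggcctgtA
The second of these had 708 reads, and miR-92a-3p carried a lone A in 2.41% of reads and a lone T in 0.0859%. miR-20a-5p led with A (8.13% A and 3.22% T), as did miR-17-5p (6.19% A and 3.02% T). Added C or G stayed at 0.607% or less in these 4 strands. For miR-92a-3p, a T after the 21 nt form is templated by Mir92-1 and an A by Mir92-2, so additions there are missed by this count.

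On Mir17hg, 39 DMSO reads in 18 tags lay between the start of Mir17 and the end of Mir92-1 without falling wholly inside a hairpin, and 66 reads in 11 tags reached outside that span. Of the 39 reads 37 reached into a hairpin, and of the 66 reads 64 reached into Mir17 or Mir92-1, so that 2 reads in each class touched no hairpin. All these tags occur once among the annotated transcripts.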

How the results depend on the processing

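No paired analysis was possible because there was 1 library for SC1 and 1 for DMSO. The cause of the changes below was not tested, except that leaving out or splitting shared tags lowers Mir92-1 and Mir19b-1 by construction. As 0 reads of the 5p arms are shared, the same settings also raise the 5p share by construction. The setting of 21 to 23 nt leaves out the 15772 Mir92-1 3p reads of 20 nt. The DMSO cluster share of hairpin reads (1.72%) was 0.855% without shared tags, 1.22% with them split equally, 1.42% with the most abundant tag of each arm, 1.13% with tags of 21 to 23 nt, 1.64% with untemplated A or T allowed, 1.98% by distinct tags and 0.226% of all reads of 18 to 26 nt. In the same order of settings the Mir92-1 share of the cluster (83.3%) was 66.2%, 78.3%, 84.1%, 72.8%, 82.0% and 24.6%, and 83.7% with tags of at least 10 reads. The 5p share of the cluster (13.3%) was 31.8%, 18.8%, 15.6%, 23.2%, 13.9% and 43.4%. The SC1 cluster share (0.343%) was 0.0484% without shared tags, 0.656% with 17 nt tags and 2.30% by distinct tags. The leading arm turned in 3 cases. By distinct tags 5p made up 45.9% of Mir17 and 46.7% of Mir18, and without shared tags it made up 60% of the 5 remaining Mir19b-1 reads. Of 96 other values for single members, 49 stayed within counting error, 44 moved beyond it and these 3 turned. Some of the 49 could not change. Mir17, Mir18, Mir19a and Mir20a share no tag, so their 5p shares were fixed when shared tags were left out or split. The tally is therefore no measure of stability. Mir92-1 led and Mir17 followed under each setting but distinct tags, where Mir17 led. Depth limits Mir19a (37 reads), the 5p strand of Mir19b-1 (3 reads) and all SC1 values.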
